A study of Mus musculus with 6 samples.

Results

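Interferon-stimulated genes were examined in unstimulated bone marrow-derived dendritic cells (BMDCs) that lacked Nfkb2, the gene of the NF-κB precursor p100 and its processed form p52. The set comprised 41 genes, taken from a list of names and found by symbol: the STAT and IRF factors that drive the interferon response, the sensors of foreign nucleic acid, the targets of the transcription complex ISGF3, and interferon-induced GTPases of the Gbp and Irg families. All 41 were among the 21849 named genes that had at least 50 counts summed over the libraries and were tested. For the comparison of the interferon programmes the set was divided into 34 ISGF3 targets, drivers and sensors included, and 7 Gbp/Irg genes.

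Poly(A) RNA was sequenced from 3 wild-type (WT) and 3 Nfkb2-/- cultures of C57BL/6 background, the mutants from mice lacking the gene in every cell. Bone marrow cells of both genotypes were grown for 5 days in GM-CSF at 20 ng/mL and then for 4 days with IL-4 at 10 ng/mL added, and no stimulus or interferon was given to either. The study's methods describe collecting the non-adherent cells of the culture, and no sort is stated for the RNA-seq. A library can thus hold any non-adherent cell type present at day 9. By flow cytometry the paper describes such cultures as mostly positive for the dendritic cell marker CD11c. It also describes them as free of macrophage-like cells with high CD115, the Csf1r protein. The labels give no such measure for these libraries. Replicate numbers are given without saying whether each was a separate mouse, so the p-values measure the spread between these libraries. Libraries held 29863927 to 55623068 counts, and expression is given as CPM, the counts scaled to library size after TMM normalisation.

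Type I interferons signal through Ifnar1 and Ifnar2 and the kinases Jak1 and Tyk2 to ISGF3, which contains Stat2 and Irf9 and binds the interferon-stimulated response element (ISRE). Interferon γ signals through Ifngr1 and Ifngr2 to factors that bind gamma-activated sites (GAS), and through Irf1 it drives many Gbp and Irg genes. A low tonic interferon signal keeps part of this programme on in unstimulated myeloid cells. The noncanonical NF-κB pathway, in which p100 is processed to p52 and pairs with RelB, has been described as restraining type I interferon induction.

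The targeted gene followed the labels. Nfkb2 was at 215, 154 and 355 CPM in WT replicates 1 to 3 and at 44.8, 32.3 and 32.6 CPM in Nfkb2-/- replicates 1 to 3, a log2 fold change of -2.72 with an SE of 0.33 and an adjusted p of 0.0307 from edgeR quasi-likelihood fits. The adjusted p was above 0.05 when any Nfkb2-/- replicate or WT replicate 1 was left out, with a highest value of 0.163. Dendritic cell markers summed to 5449 to 9121 CPM over 10 genes in each library. Of the 10, 3 separated upwards (12.7% of all genes), 1 downwards (12%), and 1 was called (1.14%). The other 6, H2-Ab1, H2-Aa, Cd74, Flt3, Cd209a and Irf4, overlapped between genotypes. Itgax (CD11c) rose, at 160, 277 and 123 CPM in WT and 745, 769 and 716 CPM in Nfkb2-/-, with a log2 fold change of 1.99 (edgeR adjusted p = 0.0414). Without Nfkb2-/- replicate 1 the edgeR adjusted p of Itgax was 0.09. Cd86 and Ciita separated upwards and Zbtb46 downwards without passing. Of 10 markers of plasmacytoid dendritic cells, the main interferon producers, 7 were tested and summed to 268 to 337 CPM, mostly from Tcf4 and Runx2, which other cells also express. Siglech, which defines these cells, was at most 0.664 CPM in any library, and Ly6d, Cox6a2 and Klk1 had at most 14 counts. Pacsin1 of that list was at 8.59, 8.77 and 12.5 CPM in WT and 21.4, 22.9 and 21.1 CPM in Nfkb2-/- (log2 fold change 1.13, edgeR adjusted p = 0.0507). Granulocyte markers summed to 69.3 to 166 CPM over 8 genes. Of these 7 were below 0, where 55.7% of all genes were above 0, and none was called (1.14% of all genes). Retnlg, Csf3r and Ltf were lowest, at -2.13, -1.79 and -1.60, while S100a8, the most abundant, was at 0.37. In Retnlg, Csf3r and Ltf, WT replicate 3 lay within the range of the Nfkb2-/- libraries. All 8 granulocyte markers overlapped between genotypes, where 24.7% of all genes separated. DESeq2 called 2 of the 8 lower, where it called 8.6% of all genes in either direction. Lymphocyte markers summed to at most 4.67 CPM. The part of these cell types in the results that follow was not tested. A pair of libraries stood apart. WT replicate 3 had the lowest level of all 11 macrophage and monocyte markers, which summed to 220 CPM there against 1004 to 1779 CPM elsewhere. Nfkb2-/- replicate 1 had at least 1 count on 47952 genes, against 27692 to 33841 elsewhere. Results are therefore also given without each.

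Most interferon-stimulated genes had a higher level in Nfkb2-/- than in WT BMDCs, but few of them passed the test. The log2 fold change was above 0 for 38 of the 41 genes, where 55.7% of all genes tested were above 0, and its median was 0.57 against 0.08 over all genes tested. That background moved with genes of low counts, and it was 0.60 when every gene with at least 1 count was kept. Only Zbp1 and Ifi44 passed the threshold of an adjusted p under 0.05 and a fold change over 1.2, both higher in Nfkb2-/-. That is 2 of 41, or 4.88%, where 1.14% of all genes were called, made up of 0.453% higher and 0.682% lower in Nfkb2-/-. At an unadjusted p under 0.05 there were 17 of 41, where 17.1% of all genes passed. In 16 genes every Nfkb2-/- library lay above every WT library, as in 12.7% of all genes, and in Mx1 alone every Nfkb2-/- library lay below, as in 12% of all genes. The other 24 genes overlapped between genotypes. Without WT replicate 3 the groups separated upwards in 20 genes, with 17.6% of all genes doing so, and downwards in 2, with 17.2%. Without Nfkb2-/- replicate 1 they separated upwards in 21 genes, with 21.3% of all genes, and downwards in 1, with 21.7%. The count of called genes moved with the fit. DESeq2 called 12 of the 41 higher and Mx1 lower, where it called 8.6% of all genes. The count was 5 with limma voom (2.23% of all genes), 2 with RLE size factors (1.09%), 1 with total counts (1.13%), 3 with filterByExpr (2.06%), 13 with no filter beyond 1 count (3.5%) and 5 with at least 10 counts in every library (2.82%). It was 6 without WT replicate 2 (5.87%), 1 without WT replicate 3 (1.27%), 6 without both WT replicate 3 and Nfkb2-/- replicate 1 (4.85%), and 0 without any other library or with a replicate block, where 0% of all genes were called. Of the fits leaving out 1 library, Zbp1 and Ifi44 were called in that without WT replicate 2 only, with adjusted p of 0.0738 and 0.0523 without WT replicate 3. In bulk RNA a difference in RNA per cell and a difference in the cells present cannot be told apart.

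**Figure D1:**
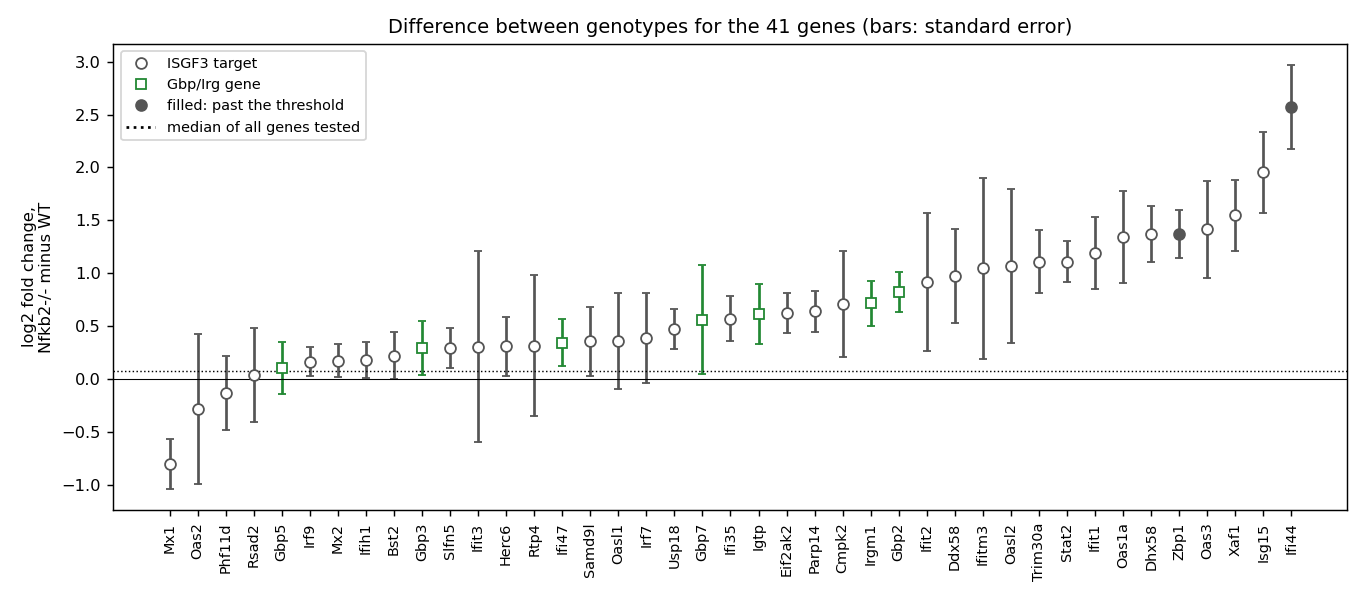
Log2 fold change (Nfkb2-/- minus WT, vertical axis) of each of the 41 genes, ordered by its value, with bars of 1 standard error; circles are ISGF3 targets, squares Gbp/Irg genes, filled symbols passed the threshold and the dotted line is the median of all genes tested, 0.08. Values run from -0.80 for Mx1 to 2.57 for Ifi44, and 38 of 41 lie above 0.

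Promoter letters were read for both classes. A RefSeq window on GRCm38.p6 running from 250 bases before the start to 50 after it was at hand for 33 of the 41 genes, and not for Dhx58, Zbp1, Oas2, Usp18, Mx1, Mx2, Rtp4 and Parp14. The ISRE core was searched as GAAA repeated after any 2 bases and the GAS core as TTCNNNGAA, each on both strands, and the patterns can overlap. An ISRE core was present in 20 of the 33 genes, 60.6%, against 3.99% of 27025 genes in the table. Among ISGF3 targets it was in 14 of 26 and among Gbp/Irg genes in 6 of 7. A GAS core was in 6 of 26 ISGF3 targets and 3 of 7 Gbp/Irg genes, against 9.55% of all genes, and the patterns overlapped in 2 of the members. Of the genes whose Nfkb2-/- libraries all lay above WT, 10 of 12 with a window held an ISRE core, against 10 of 21 of the overlapping genes. Those of the 12 without a core were Ifi44 and Xaf1, with log2 fold changes of 2.57 and 1.55. Thus of the called genes Ifi44 held no core in its window and Zbp1 could not be searched. The median log2 fold change was 0.67 over the 20 genes with an ISRE core and 0.39 over the 13 without, as a description.

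Stretches of 100 bases with the ISRE core in capitals are shown for 8 genes whose genotypes did not overlap, chosen so that the element can be read beside the expression values that follow. Positions are GRCm38.p6 and each sequence runs 5′ to 3′ on the strand of its gene, so that a core on the other strand reads as TTTC repeated.
Stat2 chr10:128270270-128270369, plus strand: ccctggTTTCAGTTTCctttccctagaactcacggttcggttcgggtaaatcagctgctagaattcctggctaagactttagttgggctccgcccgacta
Oas1a chr5:120907526-120907625, minus strand: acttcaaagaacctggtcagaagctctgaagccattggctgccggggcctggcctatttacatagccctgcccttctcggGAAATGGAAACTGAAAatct
Oas3 chr5:120777660-120777759, minus strand: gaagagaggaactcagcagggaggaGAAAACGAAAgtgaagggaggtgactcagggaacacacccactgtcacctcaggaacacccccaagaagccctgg
Ifit1 chr19:34640779-34640878, plus strand: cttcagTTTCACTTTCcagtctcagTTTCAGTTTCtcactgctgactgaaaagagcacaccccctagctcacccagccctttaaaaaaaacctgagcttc
Isg15 chr4:156200819-156200918, minus strand: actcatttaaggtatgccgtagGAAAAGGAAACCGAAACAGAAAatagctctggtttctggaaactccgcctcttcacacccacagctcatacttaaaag
Trim30a chr7:104465194-104465293, minus strand: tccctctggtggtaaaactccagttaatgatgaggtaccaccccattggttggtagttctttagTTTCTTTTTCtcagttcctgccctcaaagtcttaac
Gbp2 chr3:142620563-142620662, plus strand: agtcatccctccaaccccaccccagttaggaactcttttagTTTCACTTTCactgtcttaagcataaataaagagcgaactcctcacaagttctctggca
Irgm1 chr11:48871421-48871520, minus strand: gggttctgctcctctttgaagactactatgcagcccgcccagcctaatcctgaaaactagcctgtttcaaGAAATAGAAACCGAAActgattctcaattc
In Isg15 3 cores and in Irgm1 and Oas1a 2 cores overlap into 1 run, while in Ifit1 2 cores stand apart. Stat2, Ifit1, Trim30a and Gbp2 hold the core in the opposite orientation to Isg15. A match is a string of letters and was not tested as a binding site.

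Among the drivers, Stat2 separated the genotypes and Irf9 and Irf7 did not. Stat2, the ISGF3 subunit that gives the complex its transactivation domain, was at 53.0, 61.0 and 79.6 CPM in WT and at 132, 158 and 128 CPM in Nfkb2-/-. Every mutant library exceeded the highest WT library, with a log2 fold change of 1.11 (SE 0.19, edgeR adjusted p = 0.0507), just outside the threshold. Irf9, its DNA-binding subunit, was at 64.8, 68.0 and 76.7 CPM in WT and at 80.2, 81.2 and 73.1 CPM in Nfkb2-/-, a log2 fold change of 0.16 (SE 0.14). The ranges of Irf9 overlapped. Irf7, the factor that amplifies interferon α production, was low, at 5.20, 5.60 and 2.20 CPM in WT and 8.24, 5.27 and 3.55 CPM in Nfkb2-/-, with overlapping ranges and a log2 fold change of 0.39 (SE 0.43). Stat2 alone of the 3 was called by DESeq2, which called 8.6% of all genes.

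The nucleic acid sensors were above 0 in 5 of 5 genes (55.7% of all genes) and separated upwards in 4 (12.7% of all genes). Zbp1, a sensor of Z-form nucleic acid that triggers necroptosis, was at 15.9, 22.0 and 16.9 CPM in WT and at 51.1, 56.1 and 34.9 CPM in Nfkb2-/-. It rose by a log2 fold change of 1.37 (SE 0.23, edgeR adjusted p = 0.0462). Across the alternatives its adjusted p ran from 1.23e-05 to 0.219, and its log2 fold change stayed between 1.19 and 1.56 when any library was left out. Dhx58, which encodes the RIG-I-like receptor LGP2, was at 7.76, 7.41 and 4.27 CPM in WT and at 17.0, 19.4 and 14.0 CPM in Nfkb2-/-. The groups did not overlap and the log2 fold change was 1.37 (SE 0.27, edgeR adjusted p = 0.0625). Ddx58, the RNA sensor RIG-I, was at 40.0, 48.6 and 12.5 CPM in WT and 60.3, 78.1 and 60.5 CPM in Nfkb2-/-, and its log2 fold change of 0.97 dropped to 0.58 without WT replicate 3. Ifih1, the long RNA sensor MDA5, was at 74.7, 72.1 and 65.9 CPM in WT and at 65.2, 95.5 and 79.9 CPM in Nfkb2-/-, and its ranges overlapped. Eif2ak2, the RNA-activated kinase PKR, was at 62.8, 78.0 and 56.4 CPM in WT and at 88.8, 120 and 94.0 CPM in Nfkb2-/-. Its groups separated by a smaller step, a log2 fold change of 0.62 (SE 0.19, edgeR adjusted p = 0.162).

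Oas enzymes make the 2-5A messenger that activates RNase L, and none of the 5 passed the threshold, where 1.14% of all genes did. Of the 5, 2 separated upwards (12.7% of all genes). Oas1a was at 6.57, 10.1 and 2.65 CPM in WT and 18.6, 16.8 and 13.6 CPM in Nfkb2-/-, a log2 fold change of 1.34 (SE 0.43, edgeR adjusted p = 0.18). Oas3 was at 25.7, 26.0 and 7.12 CPM in WT and at 52.7, 62.9 and 41.9 CPM in Nfkb2-/-, a log2 fold change of 1.42 (SE 0.46, edgeR adjusted p = 0.18). In both genes the genotypes did not overlap, and in both WT replicate 3 was far below the other WT libraries. Oasl2, an Oas-like protein, was at 25.6, 36.2 and 2.93 CPM in WT and 48.7, 53.6 and 33.5 CPM in Nfkb2-/-, with overlap and a log2 fold change of 1.07 (SE 0.73). Oas2 went the other way, at 10.4, 13.4 and 1.17 CPM in WT and 8.01, 7.71 and 4.86 CPM in Nfkb2-/-. Its log2 fold change was -0.28 (SE 0.71), and without WT replicate 3 every mutant library lay below WT. Oasl1, with a log2 fold change of 0.36, was the least abundant of the 41 per kilobase of exon. Oas1a has close paralogues in its cluster, and how reads shared among them were counted is not given in the sources used here.

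The Ifit proteins bind foreign RNA caps and ends. Ifit1 was at 8.02, 8.15 and 3.99 CPM in WT and 13.6, 20.8 and 11.7 CPM in Nfkb2-/-. The groups did not overlap, with a log2 fold change of 1.19 (SE 0.34, edgeR adjusted p = 0.143). Ifit2 was at 9.99, 13.1 and 1.38 CPM in WT and 15.3, 17.9 and 13.0 CPM in Nfkb2-/-, with a log2 fold change of 0.92 (SE 0.65). Ifit3 was at 2.99, 2.74 and 0.069 CPM in WT and 3.16, 2.31 and 1.76 CPM in Nfkb2-/-, a log2 fold change of 0.31 (SE 0.91). In both of these WT replicate 3 was far below every other library, and without it the log2 fold changes were 0.42 and -0.25.

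Isg15 is a ubiquitin-like protein conjugated during the response, Herc6 its ligase in the mouse and Usp18 the enzyme that removes it and also damps the interferon receptor. Isg15 was at 1.23, 0.92 and 0.55 CPM in WT and 4.11, 3.96 and 2.54 CPM in Nfkb2-/-. Its log2 fold change of 1.95 (SE 0.38, edgeR adjusted p = 0.0625) was the second largest of the 41, at a low level. Usp18 was at 20.4, 19.5 and 23.8 CPM in WT and 25.9, 36.5 and 26.1 CPM in Nfkb2-/-, without overlap and with a log2 fold change of 0.47 (SE 0.19). Herc6 was at 115, 88.1 and 167 CPM in WT and 113, 188 and 157 CPM in Nfkb2-/-, with overlap and a log2 fold change of 0.31 (SE 0.28).

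Of the 8 genes grouped for virus restriction none passed the threshold, where 1.14% of all genes did. In this group 1 gene separated upwards (12.7% of all genes) and 1 downwards (12%). Mx1, a dynamin-like GTPase that blocks influenza virus in mice carrying an intact gene, was the most abundant of all 41 genes per kilobase. It was at 546, 405 and 729 CPM in WT and 354, 291 and 317 CPM in Nfkb2-/-, the reverse of most genes. Its log2 fold change was -0.80 (SE 0.23, edgeR adjusted p = 0.149), and it was -0.57 without WT replicate 3. C57BL/6 mice are known to carry a defective Mx1 allele, and the counts do not show which transcript is made. Mx2, annotated as a polymorphic pseudogene, was at 16.4, 16.8 and 17.2 CPM in WT and 21.0, 19.4 and 16.4 CPM in Nfkb2-/-. Trim30a, a negative regulator of Toll-like receptor signalling, was at 109, 149 and 67.8 CPM in WT and 200, 286 and 214 CPM in Nfkb2-/-. Its groups did not overlap, with a log2 fold change of 1.11 (SE 0.30, edgeR adjusted p = 0.125). Ifitm3, which blocks virus fusion in endosomes, was at 14.3, 27.4 and 1.03 CPM in WT and 24.3, 31.7 and 32.3 CPM in Nfkb2-/-, where WT replicate 3 was far below all other libraries. Cmpk2, Rsad2 (viperin), Bst2 (tetherin) and Samd9l overlapped between genotypes, with log2 fold changes of 0.71, 0.03, 0.22 and 0.35.

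In the remaining ISGF3 targets Ifi44, whose product has been described as restraining cell growth, passed the threshold. It was at 1.66, 2.55 and 1.07 CPM in WT and 11.8, 13.1 and 6.57 CPM in Nfkb2-/-, and rose by a log2 fold change of 2.57 (SE 0.40, edgeR adjusted p = 0.042), a fitted fold change of 5.94. Across the alternatives its adjusted p ran from 2.32e-11 to 0.202, and its log2 fold change from 2.32 to 2.93 when any library was left out. Xaf1, a pro-apoptotic antagonist of XIAP, was at 15.5, 21.2 and 8.64 CPM in WT and 52.6, 44.9 and 34.9 CPM in Nfkb2-/-, a log2 fold change of 1.55 (SE 0.33, edgeR adjusted p = 0.0787). Its groups did not overlap. Parp14, an ADP-ribosyltransferase, was at 153, 206 and 149 CPM in WT and 236, 316 and 241 CPM in Nfkb2-/-, also without overlap and with a log2 fold change of 0.64 (SE 0.20). Ifi35 was at 10.1, 11.6 and 15.0 CPM in WT and 14.9, 20.5 and 19.0 CPM in Nfkb2-/-, and Slfn5 was at 142, 132 and 99.0 CPM in WT and 145, 175 and 136 CPM in Nfkb2-/-, both with overlap. Rtp4 and Phf11d gave log2 fold changes of 0.32 and -0.13.

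**Figure D2:**
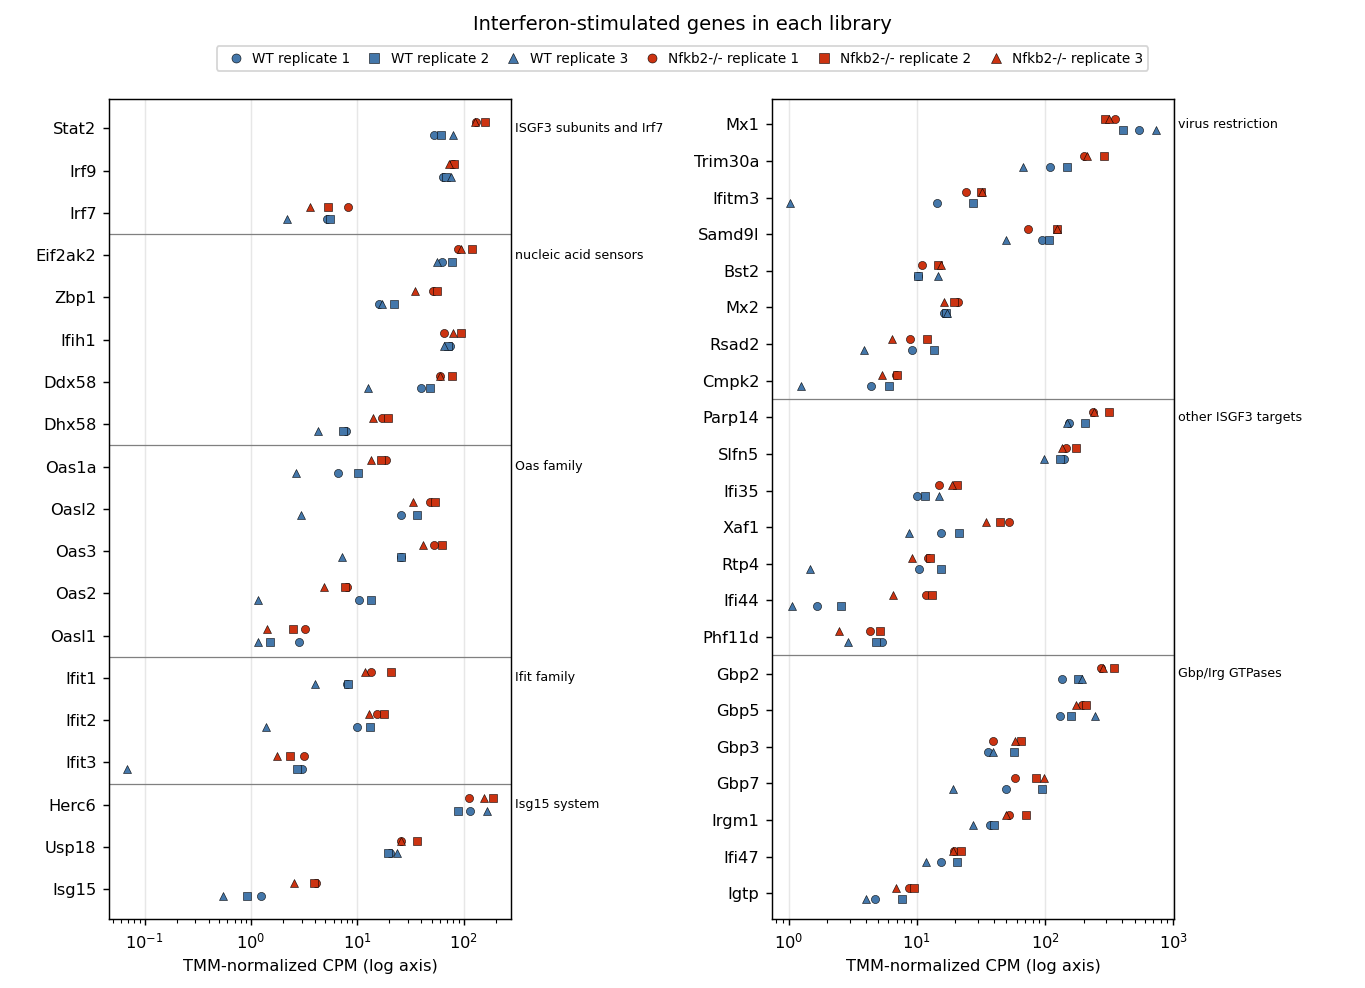
Level of each of the 41 genes in the 6 libraries (TMM-normalised CPM on a log axis), with WT in blue below and Nfkb2-/- in red above for each gene and replicates 1 to 3 as circle, square and triangle; genes are grouped by role. In 16 genes all red symbols lie to the right of all blue ones and in Mx1 to the left, and the blue triangle (WT replicate 3) is the lowest symbol in 27 genes.

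The Gbp and Irg genes encode GTPases that assemble on vacuoles of intracellular pathogens. All 7 had log2 fold changes above 0, as did 55.7% of all genes, 2 separated upwards, as did 12.7% of all genes, with 24.7% separating in either direction, and none passed the threshold. Gbp2 was at 137, 182 and 196 CPM in WT and 274, 347 and 285 CPM in Nfkb2-/-, a log2 fold change of 0.82 (SE 0.19, edgeR adjusted p = 0.094). Irgm1, a regulator of the other Irg proteins, was at 37.5, 40.2 and 27.6 CPM in WT and 52.3, 71.1 and 49.6 CPM in Nfkb2-/-, a log2 fold change of 0.72 (SE 0.21, edgeR adjusted p = 0.152). These were the 2 genes without overlap, and both were called by DESeq2, which called 8.6% of all genes. Gbp3 was at 35.9, 57.6 and 39.6 CPM in WT and 39.3, 65.3 and 58.1 CPM in Nfkb2-/-. Gbp5, which also promotes inflammasome assembly, was at 131, 160 and 246 CPM in WT and 193, 210 and 174 CPM in Nfkb2-/-. Gbp7 was at 49.2, 95.4 and 19.1 CPM in WT and 58.3, 85.1 and 98.1 CPM in Nfkb2-/-. The log2 fold changes of these 3 genes were 0.29, 0.10 and 0.56, smaller than or close to their standard errors of 0.26, 0.24 and 0.52. Igtp was at 4.74, 7.66 and 3.99 CPM in WT and 8.74, 9.49 and 6.92 CPM in Nfkb2-/-, and Ifi47 was at 15.5, 20.6 and 11.8 CPM in WT and 19.6, 22.1 and 19.0 CPM in Nfkb2-/-. Both overlapped in range, with log2 fold changes of 0.62 and 0.34. Igtp shares up to 162 exonic bases with Irgm2, so some reads may be assigned to either.

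Set side by side, the ISGF3 targets and Gbp/Irg genes had medians close to each other. The median log2 fold change was 0.60 over the 34 ISGF3 targets, with 31 above 0, and 0.56 over the 7 Gbp/Irg genes, with 7 above 0. Values ran from -0.80 to 2.57 in the first group and from 0.10 to 0.82 in the second. The genotypes separated upwards in 14 of 34 and in 2 of 7 genes, where 12.7% of all genes did, and 2 of 34 against 0 of 7 were called, where 1.14% of all genes were. Leaving out Stat2, Irf9, Irf7 and the sensors gave a median of 0.52 over 26 targets. Without WT replicate 3 the medians were 0.51 and 0.40, and without Nfkb2-/- replicate 1 they were 0.67 and 0.58. No test of the difference between the classes was made, and with 7 genes a median is set by few values.

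WT replicate 3 was the lowest library for 27 of the 41 genes, as it was for 25.0% of all genes tested, and Nfkb2-/- replicate 2 was the highest for 25, as it was for 11.7% of all genes. In 14 of the 41, or 34.1%, WT replicate 3 lay under 0.5 times the lower of the other WT libraries, against 11.6% of all genes. Of these 13 were ISGF3 targets and 1, Gbp7, was a Gbp gene. All 11 macrophage and monocyte markers, Csf1r and Adgre1 among them, were under the same limit there. Of the 16 genes that separated upwards (12.7% of all genes did), 12 were among the 27 genes above that limit and 4 among the 14 under it. The median log2 fold change was 0.81 over these 14 genes and 0.47 over the 27. Upward separation is set by the highest WT library. The count of separated genes therefore does not show how far a low WT replicate 3 moved the fold changes. The part of the macrophage and monocyte markers in these differences was not tested.

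**Figure D3:**
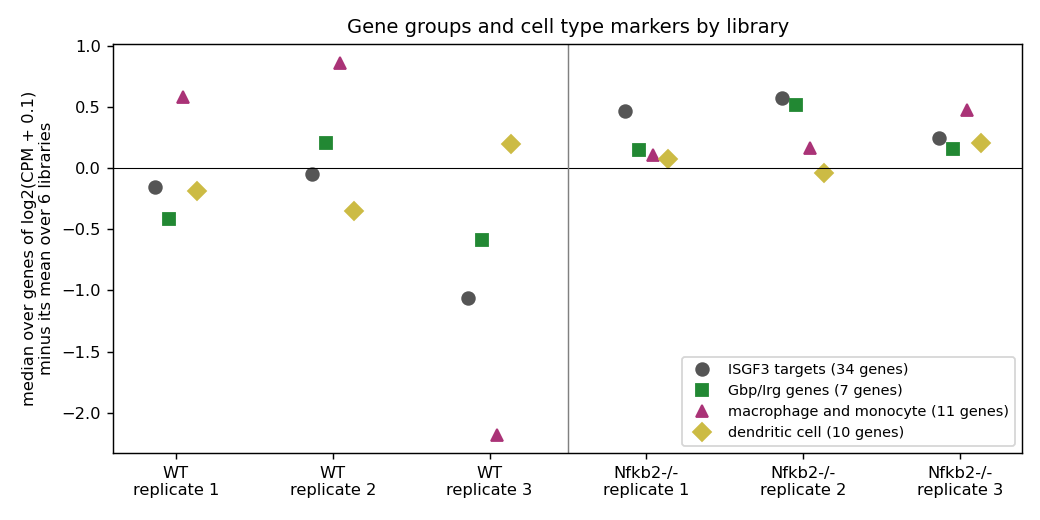
Median over the genes of a group of log2(CPM + 0.1) minus the gene's mean over the 6 libraries (vertical axis), by library, for ISGF3 targets, Gbp/Irg genes and the markers of macrophages and monocytes and of dendritic cells. The ISGF3 targets are at -1.06 in WT replicate 3, where macrophage and monocyte markers are at -2.18, and between 0.25 and 0.58 in the Nfkb2-/- libraries.

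Few genes upstream of the response passed the threshold, and others separated the genotypes without passing. Of 12 interferon genes, 11 had fewer than 50 counts in all and were not tested, the highest single value being 18 counts of Ifnl3 in Nfkb2-/- replicate 1. Ifnb1, the interferon β gene, had 0 counts in each WT library and 5, 6 and 2 counts in the Nfkb2-/- libraries. With counts pooled by group, Nfkb2-/- stood 3.99-fold above a floor of 3 counts for WT, or 3.30-fold without Nfkb2-/- replicate 1. These ratios take the Nfkb2-/- counts as exact and leave out the spread between libraries, so they are not lower bounds. The floor covers counting error of the WT group only, and reads without molecular identifiers are not independent molecules. The other 10 untested interferon genes each had their highest count in Nfkb2-/- replicate 1, the library with the most genes detected. Ifnk, the only one tested, had a log2 fold change of -0.37 (SE 0.30). None of the 8 genes for receptors, kinases and Socs1 passed the threshold or separated the genotypes, where 1.14% and 24.7% of all genes did. Jak2, Ifngr1 and Jak1 were the most abundant of them per kilobase with log2 fold changes of -0.09, -0.24 and -0.12.

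Among other interferon regulatory factors Irf1 passed the threshold in the direction opposite to Zbp1 and Ifi44. Of the 7 genes in this list, 2 separated upwards (12.7% of all genes) and 2 downwards (12%). Irf1, the factor that links interferon γ to Gbp and Irg genes, was at 24.4, 19.4 and 29.9 CPM in WT and 10.7, 10.8 and 11.2 CPM in Nfkb2-/-. It fell by 1.17 on the log2 scale (SE 0.19, edgeR adjusted p = 0.0461), the 1 of 7 genes in the list that passed, where 0.682% of all genes were called lower. Without WT replicate 3 its adjusted p was 0.051. Irf8, a lineage factor of dendritic cells and monocytes, was at 379, 173 and 540 CPM in WT and 93.3, 84.0 and 107 CPM in Nfkb2-/-, also without overlap, at an edgeR adjusted p of 0.066. Irf5, which acts downstream of Toll-like receptors, was at 210, 258 and 263 CPM in WT and 381, 370 and 375 CPM in Nfkb2-/-, every mutant library above WT, with a log2 fold change of 0.62 (SE 0.15, edgeR adjusted p = 0.104). Of 12 adaptors and kinases upstream of interferon, 3 separated upwards (12.7% of all genes), 1 downwards (12%), and none passed the threshold (1.14% of all genes). The nearest was Tmem173 (STING), at 43.0, 59.0 and 58.4 CPM in WT and 97.6, 103 and 110 CPM in Nfkb2-/-, a log2 fold change of 0.95 (SE 0.17, edgeR adjusted p = 0.0523).

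**Figure D4:**
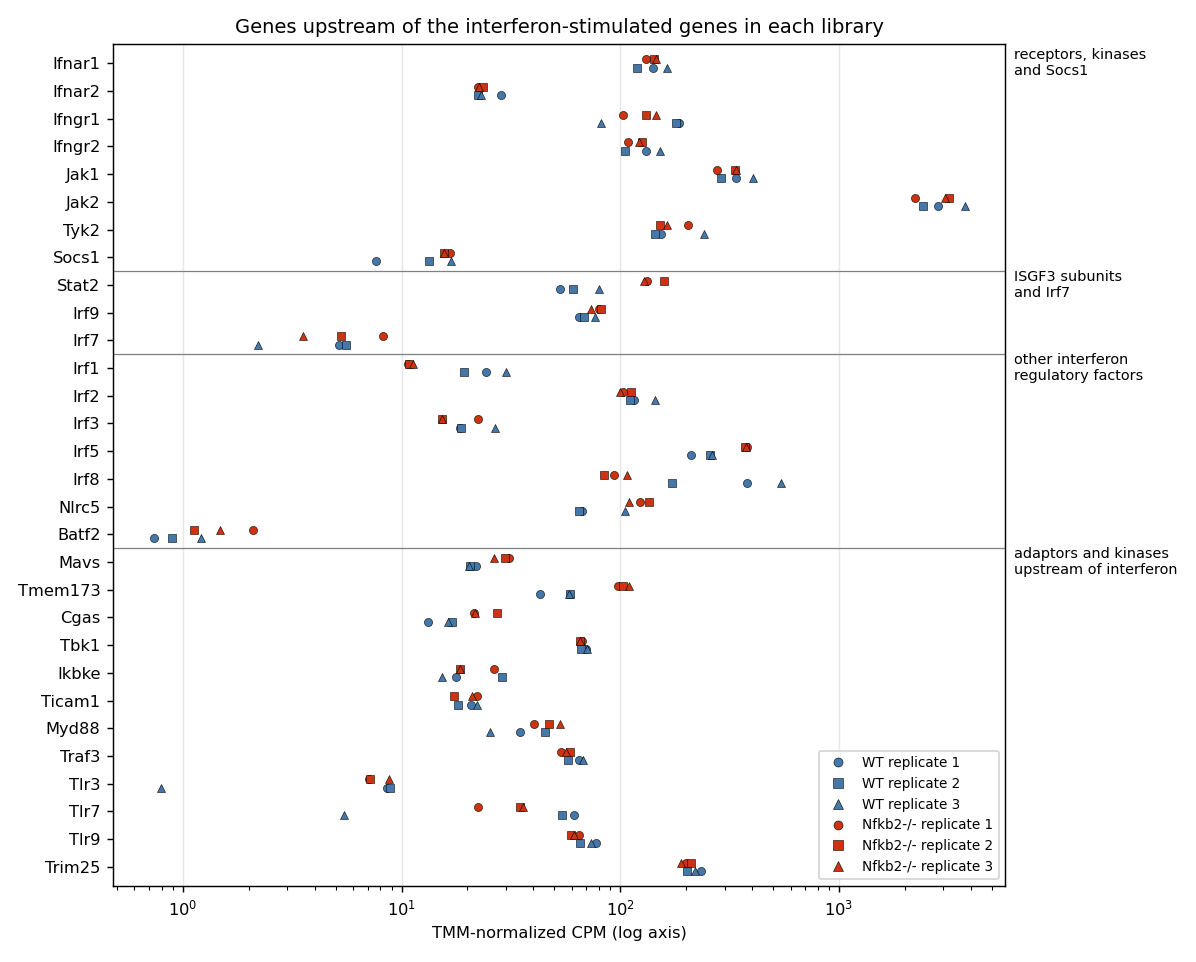
Level in the 6 libraries (TMM-normalised CPM on a log axis) of the receptors, kinases and Socs1, of the ISGF3 subunits and Irf7, of the other interferon regulatory factors, and of the adaptors and kinases upstream of interferon; WT is blue and Nfkb2-/- red, with replicates 1 to 3 as circle, square and triangle. The colours are mixed for receptors and kinases. Stat2, Irf5 and Tmem173 are among the genes with red to the right, and Irf1 and Irf8 among those with red to the left.

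Further members of both families were set beside the 41. Of 36 other interferon-stimulated genes, 27 had a log2 fold change above 0 (55.7% of all genes), 17 separated upwards (12.7% of all genes) and 4 downwards (12%), and 1 was called (1.14%). That gene was Epsti1 (epithelial stromal interaction 1), at 690, 249 and 517 CPM in WT and 70.4, 97.6 and 114 CPM in Nfkb2-/-. It fell by 2.37 on the log2 scale (SE 0.39, edgeR adjusted p = 0.044), and its adjusted p was 0.0648 without WT replicate 3. Ifi27l2a, a short membrane protein gene and among the 3 most abundant of the list, was at 20.3, 28.2 and 18.2 CPM in WT and 42.2, 53.1 and 57.9 CPM in Nfkb2-/-, without overlap and at an edgeR adjusted p of 0.0541.

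Of 10 further Gbp and Irg genes 3 were called, all lower in Nfkb2-/-, where 0.682% of all genes were called lower. The list was mixed in direction, with 6 of 10 above 0 (55.7% of all genes) and a median log2 fold change of 0.48. In it 3 genes separated upwards (12.7% of all genes) and 3 downwards (12%). Gbp4 was at 101, 86.7 and 94.3 CPM in WT and 41.6, 39.4 and 36.7 CPM in Nfkb2-/-, and it fell by 1.26 on the log2 scale (SE 0.14, edgeR adjusted p = 0.0271). Gbp8 was at 100.3, 96.9 and 109 CPM in WT and 24.0, 35.6 and 38.7 CPM in Nfkb2-/-, and it fell by 1.64 (SE 0.20, edgeR adjusted p = 0.0307). Gbp9 was at 74.7, 65.4 and 72.0 CPM in WT and 25.7, 32.7 and 32.5 CPM in Nfkb2-/-, and it fell by 1.22 (SE 0.16, edgeR adjusted p = 0.0312). In each the genotypes did not overlap, and WT replicate 3 lay close to the other WT libraries. In the fits where no gene of all tested was called, these were not called either. These 3 genes lie together on chromosome 5, from 105014150 to 105293698 with Gbp6 (GENCODE M21, GRCm38), and share up to 61 exonic bases in pairs, so they are not fully separate measurements. The 4 Gbp members of the set and Gbp2b lie together on chromosome 3, from 142493978 to 142638008, where 0 of 5 genes were called and 4 of 5 were above 0. Gbp6 was low, at 0.28 to 0.41 CPM in WT and 0.67 to 2.07 CPM in Nfkb2-/-.

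**Figure D5:**
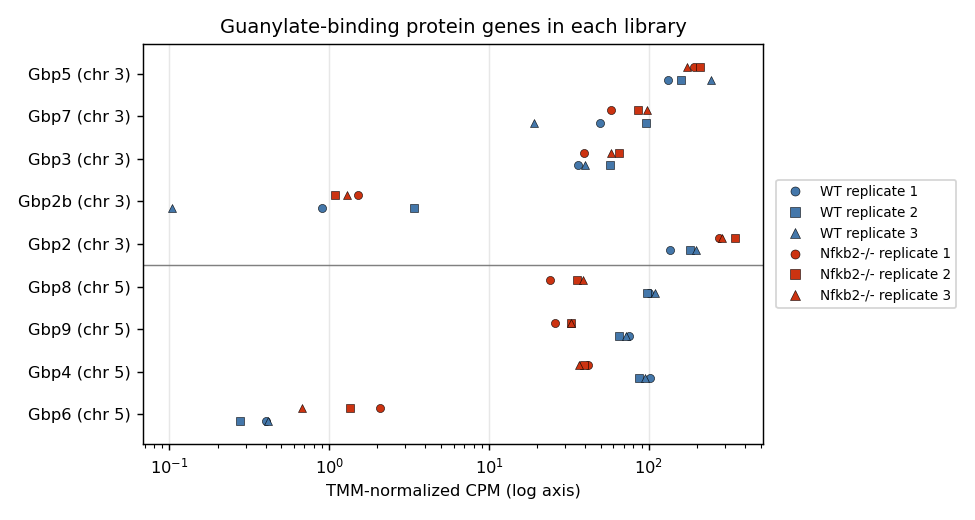
Level of 9 Gbp genes in the 6 libraries (TMM-normalised CPM on a log axis), ordered by position on chromosomes 3 and 5; WT is blue and Nfkb2-/- red, with replicates 1 to 3 as circle, square and triangle. Gbp4, Gbp8 and Gbp9 on chromosome 5 have all red symbols left of all blue ones, and Gbp2 on chromosome 3 and Gbp6 on chromosome 5 to the right.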

How the data were processed

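RNA-seq of BMDCs from 3 WT and 3 Nfkb2-/- cultures was analysed, with groups and replicate numbers taken from the sample labels. The authors aligned reads and deposited whole-number counts per Ensembl gene for each library, without normalisation. HISAT2 and GRCm38 (mm10) are named in the submitters' processing notes. The counting tool, annotation and use of strand are not given in the sources used here. A deposited table joining the 6 libraries held the same values and served only for that check.

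Of 56748 gene IDs, 52073 had a name in GENCODE M21, and IDs without one held 1.01% to 1.75% of a library's counts and stayed out of library sizes and tests. Genes with at least 50 counts summed over the 6 libraries were kept (21849). The study's methods state the same count rule but arrive at a smaller set of genes. Counts were normalised by TMM and the genotypes compared by edgeR 4.0.16 (glmQLFit and glmQLFTest, R 4.3.3) without covariates. An adjusted p-value (Benjamini-Hochberg over all genes tested) under 0.05 with a fold change over 1.2 was called. SE is the log2 fold change divided by the square root of F. Levels compared between genes are CPM per kilobase of merged GENCODE exons. DESeq2 1.42.0, limma 3.58.1 (voom), RLE size factors, total counts, other filters, a replicate block and leaving out each library were alternatives. The test was checked on simulated data.

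The 41 genes, their role groups, the pathway lists and the markers were chosen with earlier results of these data known. Per-library values were given for every gene called, for Stat2, Irf9, Irf7, Ifih1, Ddx58, Dhx58 and the Gbp/Irg genes, and in the other groups for the 3 most abundant per kilobase and the 3 with the largest change among those of at least 1 CPM in a genotype. Of the pathway lists, values were given only for genes called or among the 3 most abundant, not for all of these, and Ifnb1, Ifnl3 and Gbp6 were named after their values were seen. Some results are not reported here.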

Additional observations from a re-analysis of the deposited data

How the results depend on the processing

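The number of the 41 genes called depended on the processing, while the 2 class medians kept their sign in every alternative. Against 2 called genes in the edgeR fit, DESeq2 called 13, limma voom 5, a filter of at least 10 counts in every library 5, no filter beyond 1 count 13, total counts without TMM 1 and leaving out both WT replicate 3 and Nfkb2-/- replicate 1 (chosen after seeing the data) 6. RLE size factors called 2 and filterByExpr 3. Leaving out a single library gave 0 to 6, from 0 where WT replicate 1 or any Nfkb2-/- replicate was absent to 6 where WT replicate 2 was. In those 4 fits with 0 no gene of all tested was called, and 14, 16, 11 and 16 members had an unadjusted p under 0.05. Zbp1 and Ifi44 were no longer called with total counts, with the replicate block and in each fit that left out 1 library, save that without WT replicate 2. The Nfkb2 log2 fold change ran from -2.96 to -2.33 when a library was left out. Correlations of deviations between libraries of the same replicate number were 0.262, 0.148 and 0.0224 for numbers 1, 2 and 3. Those between different numbers ran from -0.237 to 0.164, and whether numbers mark weak pairs was not settled. With the replicate number as a block the Nfkb2 change was -2.65 at an edgeR adjusted p of 0.0594. In that fit 0 members were called, with 19 at an unadjusted p under 0.05. The labels give same-numbered libraries no link other than the number.

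The ISGF3 median ranged from 0.45 to 0.78 and the Gbp/Irg median from 0.39 to 0.82. With no filter beyond 1 count the median of all genes was 0.60, above both class medians of 0.53 and 0.51, and with total counts 0.17. Of 614 member values under the alternatives 543 kept direction and side of the threshold, 40 were newly called, 15 lost the call and 16 changed sign, and 33 members never changed sign. Signs changed in these members, given with the range when libraries were left out: Oas2 (0.15 with voom, 0.19 with the block, range -0.94 to 0.23), Rsad2 (-0.045 with no filter, range -0.32 to 0.47), Ifit3 (range -0.52 to 0.77), Rtp4 (range -0.26 to 0.91), Phf11d (range -0.44 to 0.13), Gbp5 (range -0.076 to 0.40), Irf7 (range -0.31 to 0.64) and Oasl1 (range -0.21 to 0.83). The cause was not tested. With 3 libraries per genotype and a common dispersion of 0.219, no member with a log2 fold change under 1.37 passed the threshold. Ifit3 rests on 2 counts in WT replicate 3, and interferon genes other than Ifnk were left out of the main fit by its filter of 50 summed counts.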
